A study of Mus musculus with 20 samples.

Results

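The liver makes most of the complement and coagulation proteins of the blood, and 36 of their genes were followed in the livers of mice with an *IMP2-2* transgene (tg) and of wildtype (wt) mice. The genes were taken by name: 17 complement genes, with the C1q genes left out as macrophage genes, and 19 clotting genes. Where a gene has several probe sets, the strongest by its mean over the 20 arrays stands for it, and only probe sets annotated to a single gene were used. This gave values for 33 of the 36 genes, 14 complement and 19 clotting, among 18194 genes measured in all. *C3* and *Cfd* were not analysed here, and *C4b* shares its probe set with *C4a* and was not read as a single gene.

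The study compared untreated livers of 5 week old mice by Affymetrix Mouse Genome arrays, 10 tg and 10 wt, to describe what expression of IMP2-2, a splice variant of the insulin-like growth factor 2 mRNA binding protein 2 also called p62, does to liver RNA. All animals carry the background strain label C57Bl6J/DBA2. The transgene is described as liver-specific; the promoter that drives it, the number of founder lines and the sex of the animals are not given in the sources used here, and the level of the transgene itself was not analysed here. Nothing in the labels says that livers came from separate litters, so p values measure the spread between these arrays.

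Complement is a chain of plasma proteases that ends in a pore-forming complex. The lectin pathway starts it when mannose-binding lectins bind sugars on microbes and activate their proteases MASP1 and MASP2, the alternative pathway amplifies it through factor B, and the terminal components C5 to C9 assemble into the membrane attack complex, a pore in the target membrane. Coagulation is a second chain of proteases: vitamin K-dependent factors such as factor VII, factor X and prothrombin act with the cofactor factor V until thrombin turns fibrinogen into fibrin, factor XIII crosslinks it, and antithrombin, protein C and protein S hold the chain in check. Nearly all of these proteins are secreted by hepatocytes, whose genes are held by transcription factors of the HNF4 and C/EBP families, and several rise in the acute phase response.

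The promoters of the genes gave one feature beyond their names. A RefSeq window (GRCm38.p6, 250 bases before to 50 bases after the start of the gene) was used for 26 of the 33 genes. A filter by chromosome was applied to the windows of the members but not to all windows. The letters TTCNNNGAA, a site type of STAT factors, which carry interleukin 6 signals in the acute phase response, were found for 6 of the 26 genes (23.1%), *C8a*, *Masp2*, *Fga*, *Fgb*, *F9* and *Pros1*, beside 8.30% of the 32851 windows in the table. The measures are not alike, since a member gene counted if any of its windows matched, while all windows were counted singly. Windows of 4 of these genes are shown, because *C8a* and *Masp2* are complement genes that were low in a few tg arrays and *Fga* and *Fgb* are clotting genes that were high in the same arrays. Each is written in the direction of its gene, and the capitals mark the letters found. The pattern TTCNNNGAA is the same on both strands, while the letters at its N positions are not. The *C8a* window lies on chr4:104876349-104876648 on the minus strand and the *Masp2* window on chr4:148602294-148602593 on the plus strand. The *Fga* window lies on chr3:83025903-83026202 on the plus strand and the *Fgb* window on chr3:83049814-83050113 on the minus strand.
C8a: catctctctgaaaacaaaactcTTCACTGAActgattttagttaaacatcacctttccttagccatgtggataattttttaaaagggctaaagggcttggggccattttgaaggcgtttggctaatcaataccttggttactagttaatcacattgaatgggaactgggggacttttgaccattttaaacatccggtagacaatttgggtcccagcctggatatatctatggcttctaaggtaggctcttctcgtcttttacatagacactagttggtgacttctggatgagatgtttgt
Masp2: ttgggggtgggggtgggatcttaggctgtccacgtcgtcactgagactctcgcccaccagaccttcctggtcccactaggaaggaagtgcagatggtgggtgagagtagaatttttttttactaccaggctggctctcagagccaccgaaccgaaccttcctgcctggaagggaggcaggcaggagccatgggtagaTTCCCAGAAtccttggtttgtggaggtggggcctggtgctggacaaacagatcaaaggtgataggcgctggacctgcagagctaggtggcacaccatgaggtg
Fga: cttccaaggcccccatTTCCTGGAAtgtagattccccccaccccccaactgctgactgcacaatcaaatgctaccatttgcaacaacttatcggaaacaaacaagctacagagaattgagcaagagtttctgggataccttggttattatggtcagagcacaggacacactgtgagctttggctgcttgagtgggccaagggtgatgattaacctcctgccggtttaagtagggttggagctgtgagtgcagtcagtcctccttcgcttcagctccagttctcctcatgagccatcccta
Fgb: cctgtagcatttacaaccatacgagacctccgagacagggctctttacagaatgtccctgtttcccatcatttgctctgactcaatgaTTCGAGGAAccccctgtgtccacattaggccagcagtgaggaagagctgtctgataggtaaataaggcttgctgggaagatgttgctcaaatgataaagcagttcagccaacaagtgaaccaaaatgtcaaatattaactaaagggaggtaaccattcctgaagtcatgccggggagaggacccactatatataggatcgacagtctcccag

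The other motifs searched on both strands were CTGGGA, an interleukin 6 element type, for 14 of the 26 genes (53.8%) beside 31.8% of all windows, and TTGCNNAA, a C/EBP type, for 7 (26.9%) beside 10.8%. GAAANNGAA, an interferon response element type, was found for 0 of the 26 genes beside 8.56% of all windows, and CAAAGTCCA, an HNF4 type, for 0 beside 0.475%. A match of letters is a description of the window and does not show a bound site. TTCNNNGAA is in windows of complement and clotting genes alike, among them genes with opposite values in the same arrays.

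The arrays themselves need a word before the comparisons. Array values are RMA normalised intensities on a log2 scale, so a difference of 1 is a 2-fold difference; they are comparable between arrays for one gene but not between genes. The wt arrays wt_1407_2 and wt_1420_6, and wt_1407_5 and wt_1420_7, were nearly identical (SD of the difference over all probe sets 0.17 in both pairs, against 0.23 to 0.40 between other wt arrays). They were averaged for the lowest, median and highest wt values, the ranges and the SDs of list means, which leaves 8 wt profiles. Single arrays are quoted as they stand. The SD of a gene within genotype and the limma fit keep all 20 arrays. The most alike pair of all crossed the genotypes: tg_1386_9 and wt_1386_4 (SD 0.15), which stay in their labelled groups. Without both, 1012 genes were called against 718 with them, and of the members *Serpinc1* was called higher (limma adjusted p = 0.0382). On the leading principal component 3 tg arrays were far from the other 17: tg_1420_4 scored 53.0, tg_1423_2-8_1 70.4 and tg_1423_2-8_4 69.3, against -26.8 to 8.30 (one axis over all probe sets). Where leaving them out turned the sign of a member's difference or of a median over the members, both values are given. The liver label was checked with hepatocyte markers: *Alb* read 14.35 to 14.49 in tg and 14.34 to 14.48 in wt livers, and 1 of 17 hepatocyte markers was called higher in tg and 0 lower. In whole liver RNA, fewer hepatocytes and less RNA per hepatocyte cannot be told apart.

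None of the 33 genes passed the threshold. By limma with Benjamini-Hochberg adjustment over all probe sets at 0.05, 0 of 14 complement and 0 of 19 clotting genes were called in either direction, where 2.98% of all genes were called higher and 0.967% lower in tg livers. At an unadjusted p under 0.05, *Cfb*, *Serpinc1*, *F13b* and *Pros1* were higher and *C8g*, *Cfi*, *Masp2* and *F7* lower, 8 of 33 in either direction, beside 25.2% of all genes, so the share of members was close to that of all genes. The label number shared by tg and wt arrays was then added to the fit, since arrays with the same number deviated together. With it as a fixed term *Masp2* was called lower (limma adjusted p = 0.0315) and *F13b* higher (limma adjusted p = 0.0418), 1 gene in each direction. Of all genes 5.39% were called higher and 1.88% lower, shares again close to 1 in 33. Each near-identical pair of wt arrays joins different label numbers, and this fit kept both arrays of each pair. If the arrays of a pair came from the same liver, they cannot both carry the right number. The calls of *Masp2* and *F13b* in this fit therefore rest on label numbers that the pairs put in doubt. The same doubt holds for the differences within label numbers given below.

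The median log2 fold change was -0.065 for the complement genes, with 5 of 14 above 0, and 0.051 for the clotting genes, with 14 of 19 above 0. Over all 18194 genes it was -0.022, and over the 3266 genes at least as strong as the weakest member it was 0.0045. Without the 3 tg arrays that stood apart, the medians were 0.069 for the complement and 0.00619 for the clotting genes. The complement median thus changed sign and no longer lay below the clotting median. That step took low arrays from the tg group only. It kept wt_1423_2-8_9, whose complement mean was 10.85, against 10.64 to 11.04 in the 3 tg arrays. The sign therefore depends on which low arrays are kept. Leaving out the tg_1423_2-8 and wt_1423_2-8 arrays instead, from both genotypes, kept the complement median below 0 and below the clotting median.

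**Figure D1:**
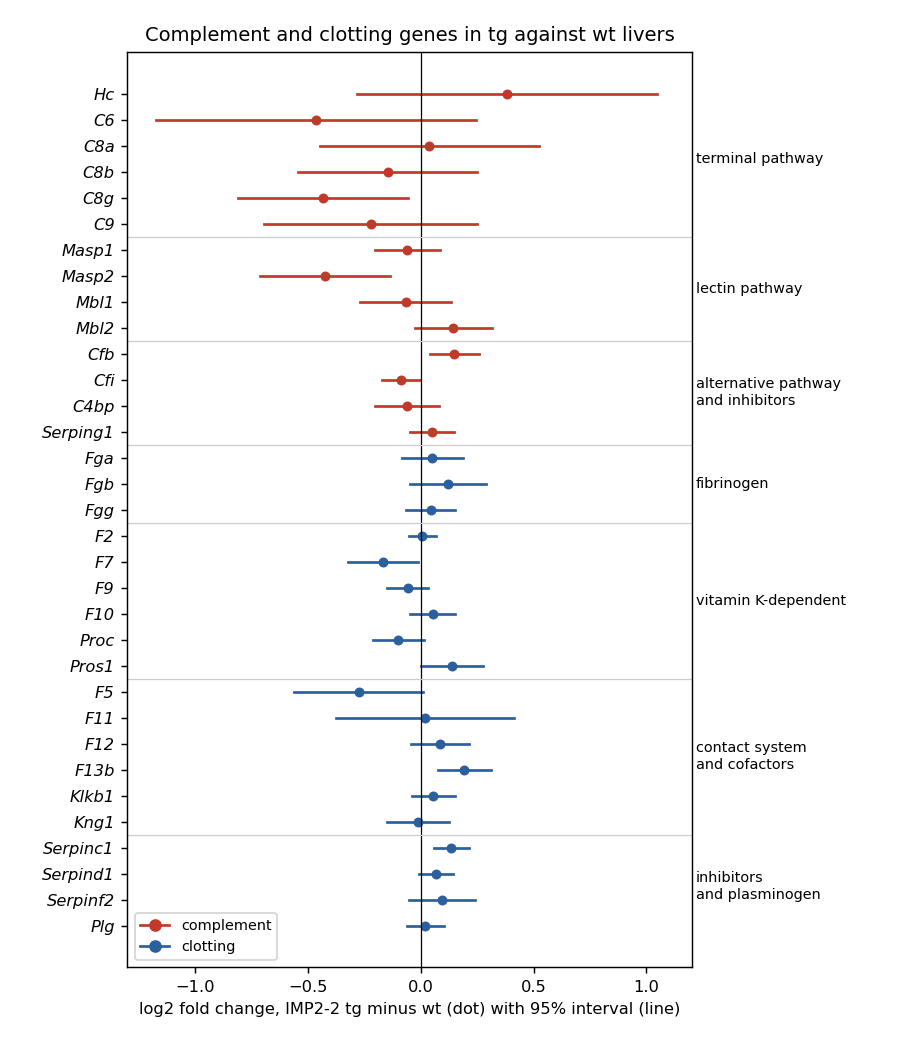
Log2 fold change of each of the 33 genes, tg minus wt (x axis, log2 units), with its 95% interval from limma over 20 arrays; complement genes are red, clotting genes blue, grouped by role. The intervals of the terminal pathway genes and *F11* are the widest, and that of *F2*, -0.053 to 0.066, is the narrowest.

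The spread between livers of the same genotype differed widely from gene to gene. It was taken over all 20 arrays, so both arrays of each near-identical wt pair count. Its median was 0.28 for the complement genes, 0.12 for the clotting genes and 0.17 for all genes at least as strong as the weakest member. All 6 terminal pathway genes and *F11*, 7 of 33 members, had an SD within genotype above 0.378, the 90th percentile of these 3266 genes (327 of those genes lie above it, by its definition). The SDs were 0.83 for *C6*, 0.78 for *Hc*, 0.57 for *C8a*, 0.55 for *C9*, 0.47 for *C8b*, 0.46 for *F11* and 0.44 for *C8g*. At the other end, *F2*, which encodes prothrombin, had an SD of 0.023, at percentile 0.061 of the same genes, and *Serpind1*, *Serpinc1*, *Plg* and the complement gene *Cfi* followed with SDs of 0.059 to 0.072, the last of them at percentile 3.64. These percentiles span all levels from 8.12 upward, and *F2* averaged 13.06. Outside the list, strong genes differed: *Apoh* (mean 13.54) had an SD of 0.022 and *Car3* (mean 13.62) 0.32. The part of signal level in these SDs was not tested.

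**Figure D2:**
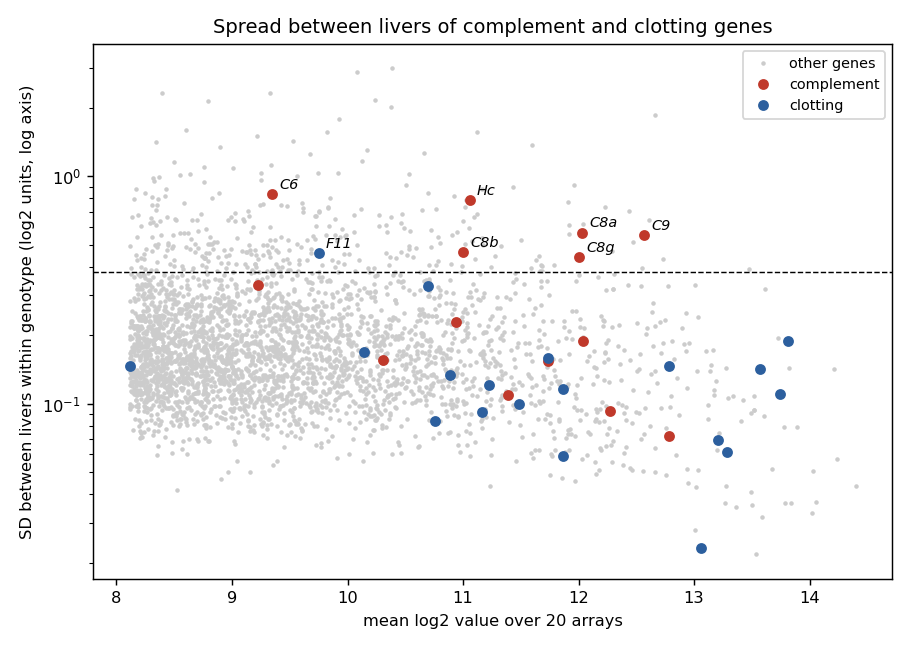
SD between livers within genotype (y axis, log2 units, log axis) against the mean log2 value over 20 arrays (x axis) for the 3266 genes at or above the weakest member, with complement genes in red and clotting genes in blue. The dashed line is the 90th percentile, 0.378, and the 7 named genes lie above it. The SDs are over all 20 arrays, near-identical wt pairs included.

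*Hc* encodes C5, the protein whose cleavage starts the membrane attack complex. It read 9.89, 11.68 and 11.94 (lowest, median and highest) in tg and 9.91, 11.18 and 11.81 in wt livers, and the genotypes overlapped throughout. Its log2 fold change was 0.38 (SE 0.32, limma adjusted p = 0.527; exact permutation p = 0.527 over 43758 divisions of 10 tg arrays and 8 wt profiles, where the difference is 0.24), and 0.85 without the 3 tg arrays (limma adjusted p = 0.229). The values fell into a high and a low range with no array between 10.74 and 11.48: 11 arrays (7 tg, 4 wt) lay above that gap and 9 (3 tg, 6 wt, among them both near-identical pairs) below it. The low tg arrays were tg_1423_2-8_1 (9.89), tg_1423_2-8_4 (10.11) and tg_1420_4 (10.46), and the low wt arrays were wt_1407_5 (9.91), wt_1420_7 (9.92), wt_1423_2-8_9 (9.95), wt_1423_2-8_3 (10.62), wt_1420_6 (10.68) and wt_1407_2 (10.74). The DBA/2 strain is known to carry an *Hc* allele that yields no circulating C5. Which alleles each of these animals carried is not given, and their part in the values was not tested.

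*C6*, whose protein joins the complex next, had the widest spread of all 33 genes. It read 7.74, 9.36 and 10.33 in tg and 7.40, 9.75 and 10.30 in wt livers. The log2 fold change was -0.47 (SE 0.34, limma adjusted p = 0.461; exact permutation p = 0.413), and -0.066 without the 3 tg arrays. The lowest arrays were wt_1423_2-8_9 (7.40), tg_1423_2-8_1 (7.74) and tg_1423_2-8_4 (8.12). Unlike *Hc*, *C6* was not low in wt_1407_5 (9.87) and wt_1420_7 (9.83).

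The genes for the 3 chains of C8 were not low in the same wt arrays. *C8a* read 11.002, 12.26 and 12.48 in tg and 10.83, 12.33 and 12.55 in wt livers, a difference of 0.038 log2 units (SE 0.23, limma adjusted p = 0.946; exact permutation p = 0.985 on the 18 profiles, where the difference is -0.00479). Its neighbour *C8b*, with 0 protein-coding genes between them in the RefSeq table, read 9.82, 11.21 and 11.34 in tg and 10.06, 11.20 and 11.38 in wt livers, and the difference was -0.15 log2 units (SE 0.19, limma adjusted p = 0.702). The difference of *C8a* was 0.32 without the 3 tg arrays (limma adjusted p = 0.619). Both genes were low in these 3, in wt_1423_2-8_9 (10.83 and 10.06) and in wt_1407_5 (11.29 and 10.86). *C8g*, on the other hand, was low only in tg arrays. It read 10.71, 12.11 and 12.26 in tg against 11.98, 12.26 and 12.35 in wt livers, and in wt_1423_2-8_9 it still stood at 12.10.

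The *C8g* difference lay in few livers. Its log2 fold change was -0.43 (SE 0.18, 95% interval -0.81 to -0.056, limma adjusted p = 0.182, exact permutation p = 0.079). Within label numbers tg was lower than wt in 6 of 6, with differences of -1.28 to -0.035. tg_1423_2-8_1 (10.71), tg_1423_2-8_4 (10.82) and tg_1420_4 (11.23) lay below every wt array and the other 7 tg arrays did not. Without them the difference was -0.063, and without the tg_1423_2-8 and wt_1423_2-8 arrays it was -0.22.

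*C9*, the subunit that forms the wall of the pore, read 11.15, 12.71 and 13.13 in tg and 11.53, 12.78 and 13.06 in wt livers. The log2 fold change was -0.22 (SE 0.23, limma adjusted p = 0.613). The 3 tg arrays and wt_1423_2-8_9 (11.53) held the 4 lowest values. Leaving the 3 tg arrays out turned the differences of *C8b* and *C9* to 0.15 and 0.14 (limma adjusted p = 0.753 and 0.806). Without the tg_1423_2-8 and wt_1423_2-8 arrays these differences stayed negative, at -0.042 and -0.081.

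**Figure D3:**
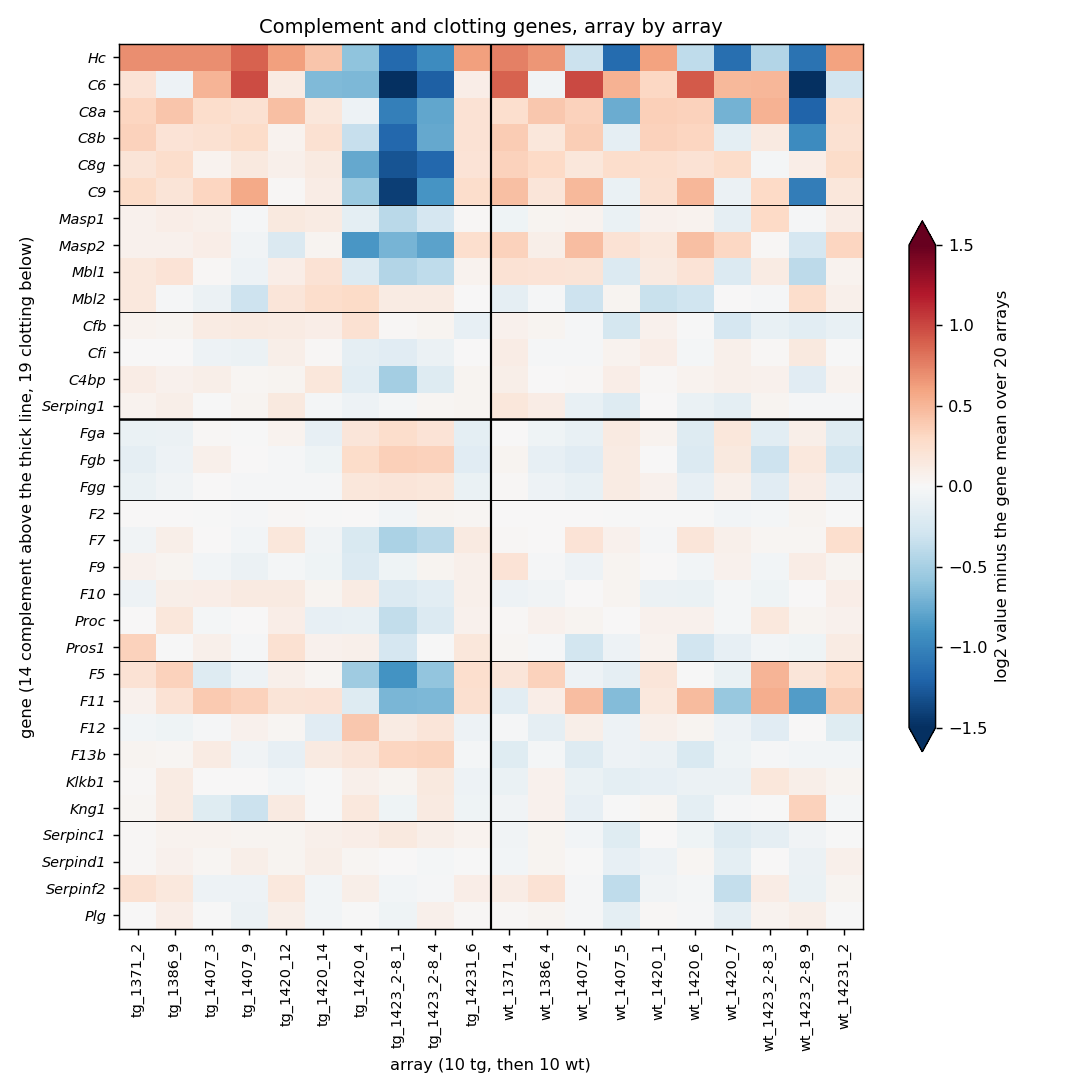
Each cell is the log2 value of a gene (row) in an array (column, 10 tg then 10 wt) minus the mean of that gene over 20 arrays, red above and blue below the mean, with the colour scale ending at 1.5 log2 units. The terminal pathway genes in the top 6 rows are blue in tg_1420_4, tg_1423_2-8_1 and tg_1423_2-8_4 and most of them in wt_1423_2-8_9, while the fibrinogen genes are pale red in the same 3 tg arrays.

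The low arrays were shared by much of the complement list. tg_1420_4, tg_1423_2-8_1 and tg_1423_2-8_4 held the 3 lowest tg values for 13 of 33 members, beside 8.08% of all genes. These were 10 of 14 complement genes (*Hc*, *C6*, *C8a*, *C8b*, *C8g*, *C9*, *C4bp*, *Masp1*, *Masp2* and *Mbl1*) and 3 of 19 clotting genes (*F5*, *F7* and *F11*). The same 3 arrays held the 3 highest tg values for 6 members, beside 11.6% of all genes, and all 6 were clotting genes: *Fga*, *Fgb*, *Fgg*, *F12*, *F13b* and *Serpinc1*. Since these arrays were picked out for standing apart in all probe sets, the member genes are part of a wider pattern and the counts are given as a description.

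A pair of genes known for higher levels in livers of adult male mice was low in the same arrays. *Hsd3b5*, a steroid dehydrogenase, read 8.54 in tg_1420_4, 3.43 in tg_1423_2-8_1, 4.04 in tg_1423_2-8_4, 5.04 in wt_1423_2-8_9, and 8.36 and 8.42 in wt_1407_5 and wt_1420_7. The other 14 arrays lay between 10.95 and 12.23. *Elovl3*, a fatty acid elongase, read 8.83, 3.78 and 4.19 in the 3 tg arrays, 3.59 in wt_1423_2-8_9 and 11.35 and 11.33 in wt_1407_5 and wt_1420_7. The Y-linked gene *Eif2s3y* was between 8.92 and 9.57 and *Xist*, which is transcribed from the inactive X chromosome, between 3.51 and 4.74 in all 20 arrays, and neither set the low arrays apart. The median probe set of an array read 4.46 to 4.55, so by these genes all 20 arrays read as male livers, though the labels give no sex. These 4 genes were picked from a longer list of sex-biased genes, of which 10 were measured and 0 called, after their values were seen. With the mean of *Hsd3b5* and *Elovl3* as a further term in the fit, the differences between genotypes were 0.57 for *Hc*, -0.26 for *C6* and -0.33 for *C8g*. What lowered both kinds of genes in these arrays was not tested.

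The mean level of the 14 complement genes minus that of the 19 clotting genes gave one value per array, whose size has no meaning but whose differences between arrays do. It ran from -1.02 to -0.21 with a median of -0.32 in tg livers and from -0.90 to -0.13 with a median of -0.30 in the wt profiles, so the genotypes overlapped and the means differed by -0.11. The difference turned to 0.077 once the 3 tg arrays that stood apart were left out. That step kept wt_1423_2-8_9, also among the lowest, so the sign depends on which low arrays are kept. The low values were -1.02 in tg_1423_2-8_1, -0.92 in tg_1423_2-8_4, -0.90 in wt_1423_2-8_9 and -0.73 in tg_1420_4. The complement mean moved between arrays (SD 0.33 in tg and 0.24 in wt livers) and the clotting mean hardly did (SD 0.045 and 0.036). A mean hides moves in opposite directions. The 3 tg arrays held the lowest tg values of *F5*, *F7* and *F11* and the highest of the fibrinogen genes. The fibrinogen mean alone had an SD of 0.15 in tg and 0.14 in wt livers.

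**Figure D4:**
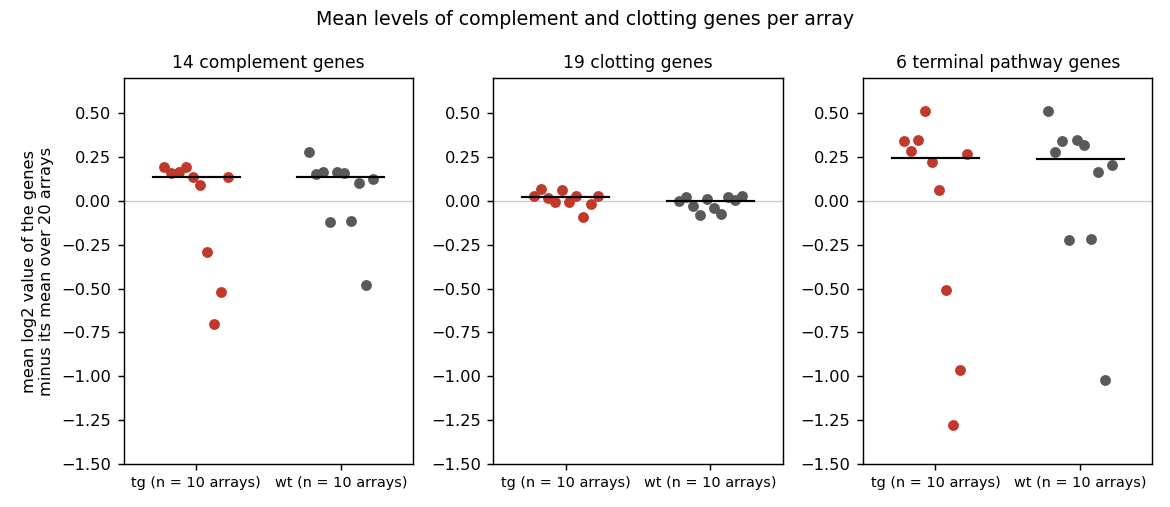
Mean log2 value of the 14 complement, 19 clotting and 6 terminal pathway genes in each array (dots, 10 tg and 10 wt), minus its mean over 20 arrays (y axis, log2 units), with the median of each genotype as a line. The complement and terminal pathway means are lowest in 3 tg arrays and 1 wt array, followed by the near-identical wt_1407_5 and wt_1420_7. The clotting means stay close to 0 in both genotypes, though single clotting genes moved in opposite directions in the 3 tg arrays.

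In the lectin pathway, *Masp2* was the gene closest to a difference among the complement genes. MASP2 is the protease that cleaves C4 and C2 once a lectin has bound. The gene read 8.36, 9.22 and 9.48 in tg and 8.97, 9.44 and 9.68 in wt livers, and 3 of 10 tg arrays lay below every wt array. Its log2 fold change was -0.42 (SE 0.14, 95% interval -0.71 to -0.14, limma adjusted p = 0.0924, exact permutation p = 0.0322). Within label numbers tg was lower in 6 of 6, with differences of -0.66 to -0.023. With the near-identical wt arrays averaged the difference was -0.39 (limma adjusted p = 0.191). The second probe set of *Masp2* gave -0.44 (SE 0.16). Without the 3 low arrays (8.36, 8.53 and 8.42) the difference was -0.18 (limma adjusted p = 0.477). Without the tg_1423_2-8 and wt_1423_2-8 arrays it was -0.37 (limma adjusted p = 0.203).

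*Masp1*, the protease that activates MASP2, depended on the probe set. The strongest of its 5 probe sets gave -0.060 (SE 0.069, limma adjusted p = 0.659), while probe sets with means of 8.45 and 8.43 gave 0.33 (limma adjusted p = 0.0904) and 0.23. The gene for mannose-binding lectin *Mbl2* read 11.73, 12.16 and 12.32 in tg and 11.70, 12.02 and 12.30 in wt livers, a difference of 0.14 log2 units (SE 0.081, limma adjusted p = 0.325; exact permutation p = 0.173). *Mbl1*, the other lectin, gave -0.067 (SE 0.097, limma adjusted p = 0.736). The 95% intervals were -0.024 to 0.31 for *Mbl2* and -0.27 to 0.13 for *Mbl1*, so neither difference was larger than its spread.

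Of the alternative pathway and the inhibitors, *Cfb* and *Cfi* had the smallest p values, with differences of opposite sign. *Cfb* encodes factor B, the protease of the alternative pathway convertase. It read 11.27, 11.47 and 11.62 in tg and 11.13, 11.33 and 11.46 in wt livers, with 5 of 10 tg arrays above every wt array and a difference of 0.15 log2 units (SE 0.052, limma adjusted p = 0.114; exact permutation p = 0.0159). It was higher in 4 of 6 label numbers. *Cfi*, the gene for the protease that inactivates C3b and C4b, read 12.60, 12.74 and 12.87 in tg and 12.76, 12.82 and 12.92 in wt livers, with 5 of 10 tg arrays below every wt array and a difference of -0.088 log2 units (SE 0.040, limma adjusted p = 0.216; exact permutation p = 0.0175). *C4bp*, the cofactor of factor I for C4b, gave -0.063 (SE 0.068) and *Serping1*, the C1 inhibitor, 0.051 (SE 0.047). The exact tests cover 15 members one at a time and were not adjusted. Of these, 12 were picked by their small limma p in the same arrays, so a small exact p is no separate support. The divisions also ignored that arrays of the same label number deviated together.

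The fibrinogen genes *Fga*, *Fgb* and *Fgg*, neighbours on chromosome 3 with 0 protein-coding genes between them in the RefSeq table, were highest in the same tg arrays. *Fgb* read 13.64, 13.81 and 14.17 in tg and 13.50, 13.76 and 13.98 in wt livers. The log2 fold changes were 0.051 (SE 0.064) for *Fga*, 0.12 (SE 0.082) for *Fgb* and 0.043 (SE 0.052) for *Fgg*, with limma adjusted p of 0.687, 0.424 and 0.677. For each of them, 3 tg arrays lay above every wt array, and these were the arrays in which the terminal complement genes were lowest among tg livers. Without those arrays the differences were -0.032, 0.0056 and -0.022. The highest value on an array averaged 14.47.

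Among the vitamin K-dependent genes, *F7*, *Pros1* and *Proc* had the smallest p values. *F7*, which encodes the factor that starts coagulation with tissue factor, read 9.67, 10.10 and 10.31 in tg and 10.12, 10.17 and 10.39 in wt livers. 6 of 10 tg arrays were below every wt array, the log2 fold change was -0.17 (SE 0.074, limma adjusted p = 0.203; exact permutation p = 0.0854), and it was -0.045 without the 3 tg arrays. *Pros1*, the gene for protein S, the cofactor of protein C, read 7.87, 8.18 and 8.46 in tg and 7.83, 8.08 and 8.24 in wt livers (log2 fold change 0.14, SE 0.066, limma adjusted p = 0.245; exact permutation p = 0.141). *Proc* itself, the gene for protein C, read 11.50, 11.86 and 12.03 in tg and 11.85, 11.93 and 12.02 in wt livers (log2 fold change -0.099, SE 0.055, limma adjusted p = 0.312; exact permutation p = 0.0783).

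The rest of this group was even. *F2* read 13.01, 13.06 and 13.10 in tg and 13.03, 13.06 and 13.10 in wt livers, and the 95% interval of its difference, -0.053 to 0.066, ends at a fold of 1.05. *F9*, the gene mutated in haemophilia B, gave -0.058 (SE 0.044). *F10* gave 0.052 (SE 0.049) in its strongest probe set but 0.27 (limma adjusted p = 0.0781) and 0.32 (limma adjusted p = 0.0720) in probe sets with means of 8.68 and 8.16, so its difference depends on the probe set. *F7* and *F10* are neighbours on chromosome 8 with 0 protein-coding genes between them, and the differences of their strongest probe sets had opposite signs.

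**Figure D5:**
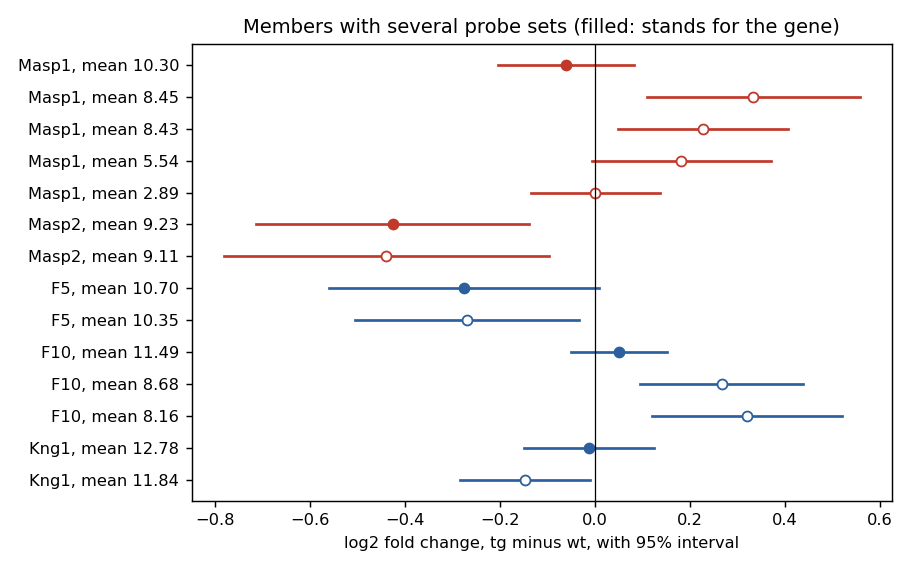
Log2 fold change, tg minus wt (x axis), with 95% interval for each probe set of the 5 members that have several, labelled by gene and mean log2 value over 20 arrays; filled dots stand for the gene. The probe sets of *Masp2* and *F5* lie close together, while those of *Masp1* and *F10* spread from near 0 to 0.33 and 0.32.

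Among cofactors and contact factors, *F13b* came nearest to a call. It encodes the carrier subunit of factor XIII, which crosslinks fibrin. It read 11.11, 11.31 and 11.57 in tg and 11.02, 11.17 and 11.21 in wt livers, and 7 of 10 tg arrays lay above every wt array. The log2 fold change was 0.19 (SE 0.056, 95% interval 0.077 to 0.31, limma adjusted p = 0.0647, exact permutation p = 0.00587). Within label numbers tg was higher in 6 of 6, with differences of 0.0056 to 0.37. With the near-identical wt arrays averaged the fold change was 0.18 (limma adjusted p = 0.135), and without the 3 tg arrays 0.12 (limma adjusted p = 0.372).

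*F5*, the cofactor of factor Xa, read 9.81, 10.68 and 11.05 in tg and 10.58, 10.88 and 11.21 in wt livers, a difference of -0.28 log2 units (SE 0.14, limma adjusted p = 0.260; exact permutation p = 0.0556). It was -0.045 without the 3 tg arrays. *F11*, a contact factor, varied about as widely as *C8b* and *C8g*, though not in the same wt arrays as *C8g*. It read 9.06, 9.95 and 10.15 in tg and 8.91, 9.88 and 10.30 in wt livers (log2 fold change 0.020, SE 0.19, limma adjusted p = 0.967), and it was low in tg_1423_2-8_1 (9.06), tg_1423_2-8_4 (9.08), wt_1423_2-8_9 (8.91), wt_1407_5 (9.10) and wt_1420_7 (9.19). Its neighbour on chromosome 8, *Klkb1*, the gene for plasma prekallikrein, did not share that spread: it lay between 11.02 and 11.34 in all 20 arrays, with an SD of 0.091. *F12*, the factor that starts the contact system, gave 0.086 (SE 0.061) and *Kng1*, the source of bradykinin, -0.011 (SE 0.066).

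The inhibitors gave the smallest p value of the list. *Serpinc1* encodes antithrombin, the main inhibitor of thrombin and factor Xa. It read 13.31, 13.34 and 13.44 in tg and 13.10, 13.24 and 13.33 in wt livers, and 7 of 10 tg arrays were above every wt array. The log2 fold change was 0.13 (SE 0.037, 95% interval 0.058 to 0.21), with a limma adjusted p = 0.0524 and an unadjusted exact permutation p = 9.14e-05. The gene was picked for the exact test by its small limma p. Within label numbers tg was higher in 6 of 6, with differences of 0.0092 to 0.21. With the near-identical wt arrays averaged the fold change was 0.12 (limma adjusted p = 0.117), and without the 3 tg arrays 0.11 (limma adjusted p = 0.289). *Serpind1*, heparin cofactor II, read 11.84, 11.90 and 11.95 in tg and 11.73, 11.85 and 11.94 in wt livers (log2 fold change 0.066, SE 0.036, limma adjusted p = 0.313; exact permutation p = 0.0405). *Serpinf2*, the plasmin inhibitor, gave 0.093 (SE 0.070), and *Plg*, plasminogen, 0.019 (SE 0.039).

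Complement genes outside the list included some that passed the test. Of 30 further complement genes measured, 6 were called higher in tg livers and 0 lower: *C1qa* (log2 fold change 0.63, limma adjusted p = 0.0120), *C1qb* (0.56, limma adjusted p = 0.0134), *C1qc* (0.54, limma adjusted p = 0.00715), *Vsig4* (0.55, limma adjusted p = 0.0270), *Cfp* (0.43, limma adjusted p = 0.0278) and *C1s1*. The C1q genes encode the recognition molecule of the classical pathway, *Vsig4* a complement receptor of Kupffer cells and *Cfp* properdin, and the C1q genes and *Vsig4* also stand in the list of macrophage markers. That list moved with them: 10 of 15 macrophage markers were called higher and 0 lower, and their mean ranged from 7.81 to 8.55 in tg and 7.50 to 8.03 in wt livers. The weakest of the called markers was *Marco*, at 5.00 to 5.86 in tg and 4.78 to 5.29 in wt livers, where the median probe set of an array read 4.46 to 4.55. The part of macrophage number in the complement calls was not tested. Without the 3 tg arrays 0 of the further complement genes were called, and with the near-identical wt arrays averaged only the C1q genes were. With the label number as a fixed term *C1s1* was no longer called (limma adjusted p = 0.0609), while *Fcna* (log2 fold change 0.30, limma adjusted p = 0.0486) and *Itgb2* (0.39, limma adjusted p = 0.0492) were called higher and *Fcnb* (-0.17, limma adjusted p = 0.0430) lower. *Fcna* and *Fcnb* encode ficolins, lectins that start complement, and *Itgb2* a chain of the complement receptors CR3 and CR4.

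Of 31 further clotting genes, *A2m* (log2 fold change 1.28, SE 0.27, limma adjusted p = 0.0185), a broad protease inhibitor of plasma, was called higher and none lower. Interferon genes, by contrast, were called higher in 21 of 21 cases, with a median log2 fold change of 1.26, among them *Irf7* at 1.56. Acute phase genes were called higher in 3 of 23 cases and lower in 0, *Hpx* at 0.23, *Il6st* at 0.31 and *Itih3* at 0.28. Of 20 liver transcription factors 0 were called, with 0 at an unadjusted p under 0.05 in the higher and 2 in the lower direction. *Hnf4a* gave 0.067 (SE 0.087, limma adjusted p = 0.701), and *Ttr* 0.024 (SE 0.036).

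Other cell types that liver RNA can hold were read in the same way. Endothelial markers were called higher in 1 of 13 cases (*Lyve1*) and cholangiocyte markers in 2 of 9 (*Bicc1* and *Pkhd1*). Of 8 platelet and erythroid, 6 adipose, 11 stellate cell and 10 lymphocyte markers 0 were called, with 4, 0, 4 and 2 of them at an unadjusted p under 0.05. No marker of these lists was called lower in tg livers.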

How the data were processed

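RNA of 10 tg and 10 wt livers was measured on 1 array each. The authors normalised the arrays by RMA, and what they deposited are log2 values of 45101 probe sets, with 0 columns that match no sample. RMA pulls all arrays to one distribution, so a change shared by most genes would not show, and the number of arrays limits the precision.

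Gene symbols came from the array annotation (34958 probe sets with 1 symbol, 932 with several, 9211 with none or not listed). limma 3.58.1 in R 4.3.3 fitted genotype to all 20 arrays, and p values were Benjamini-Hochberg adjusted over all probe sets with a threshold of 0.05. Exact permutation tests were two-sided differences of means between the 10 tg arrays and 8 wt profiles, whereas limma kept all 20 arrays. Python 3.11.15, numpy 2.4.6, scipy 1.17.1 and matplotlib 3.10.9 did the rest. Full statistics went to the 12 members with the smallest p and the 3 with the largest SD, and outside the list to at most 5 called genes per list plus *Alb*, *Ttr* and *Hnf4a*; genes of small counts are named too. Members and lists were chosen with earlier results of these data known.

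Sample names carry 6 numbers found in both genotypes, which the sources used here do not explain. After removal of genotype means, tg and wt arrays of the same number correlated at 0.184 to 0.404, above 0.1 for each, and best with their own number in 5 of 6 cases, so the fit with the number as a replicate block is given where it changes a call. It changed the calls of *Masp2* and *F13b* among the members, and of *C1s1*, *Fcna*, *Itgb2* and *Fcnb* among further complement genes. Both near-identical wt pairs cross these numbers and were kept as separate arrays in that fit, so these changes carry the same doubt.

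Alternatives were the block, renewed quantile normalisation, median centring, a filter on weak probe sets, trend and robust settings, array weights, other probe set rules, covariates and left-out arrays. The fit was tested on simulated data. 1 further gene and 1 motif planned for the text are not reported here.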

Additional observations from a re-analysis of the deposited data

Results flagged for a closer look

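Of 66 sets of values, 1 per gene and genotype, 6 held an array far from the rest by the gap between it and its nearest neighbour over the whole range. About 1 in 20 is flagged by chance. 5 of them were the same wt array, wt_1423_2-8_9: *C6* at 7.40 (nearest other wt profile 9.06), *C8b* at 10.06 (nearest 10.86), *C9* at 11.53 (nearest 12.47) and *C4bp* at 11.56 (nearest 11.74) lay below the other wt livers, and *Kng1* at 13.12 (nearest 12.84) above them. The last was *Plg* in the averaged pair of wt_1407_5 and wt_1420_7, at 13.07 against 13.19 in the nearest other profile. The part of any cause in these values was not tested.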

How the results depend on the processing

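No setting called a complement gene higher or a clotting gene lower. Complement genes called lower rose from 0 to 1 (*Masp2*) with the label number as a replicate block (adjusted p = 0.0315) and with the mean of *Hsd3b5* and *Elovl3* as a covariate, a setting chosen after seeing the data (adjusted p = 0.0280). Clotting genes called higher rose from 0 to 1 with the fixed replicate block and with that covariate (*F13b*), and with median centring, trend and robust settings, the *Xist* covariate, or without tg_1386_9 and wt_1386_4 (*Serpinc1*), to 2 with a random block or only probe sets above the median mean (both genes), and to 3 with the mean of all probe sets of a gene (*F10* too); the fixed block changed no other member call, and the random block did not call *Masp2*. Leaving out 1 array gave 0 to 1 complement genes lower (1 without tg_14231_6) and 0 to 2 clotting genes higher (2 without tg_1386_9 or tg_14231_6, 1 without tg_1420_12 or wt_1386_4). The 7 calls among further complement and clotting genes fell to 3 with near-identical wt arrays averaged, to 0 without the tg_1423_2-8 and wt_1423_2-8 arrays, to 0 without the 3 tg arrays, to 0 with both changes (chosen after seeing the data), and ranged from 4 to 12 on leaving out 1 array (4 without tg_1420_4, tg_1423_2-8_1, wt_1407_2 or wt_1420_6, 12 without tg_1386_9). All genes called were 1323 with the block, 181 with averaging, 49 without the tg_1423_2-8 and wt_1423_2-8 arrays, 112 without the 3 tg arrays and 9 with both changes, against 718. Without the 3 tg arrays the median of the clotting genes moved to 0.00619, and that of the complement genes turned from -0.065 to 0.069. Their score difference turned from -0.11 to 0.071 over all other arrays and to 0.077 with averaged pairs.

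Differences that changed sign had all failed the test. On renewed quantile normalisation *F11* was -0.013 and *Kng1* 0.014, and on median centring *Kng1* was 0.012. With averaged pairs *C8a* was -0.00479. Without the tg_1423_2-8 and wt_1423_2-8 arrays, *Masp1* was 0.042, *Fga* -0.00442 and *Kng1* 0.020. Without the 3 tg arrays, *C8b* was 0.15, *C9* 0.14, *C4bp* 0.047, *Masp1* 0.041, *Mbl1* 0.066, *Fga* -0.032 and *Fgg* -0.022. With averaged pairs as well, *C6* was 0.058, *C8b* 0.16, *C9* 0.16, *C4bp* 0.055, *Masp1* 0.025, *Mbl1* 0.057, *Fga* -0.025 and *Fgg* -0.019. *Masp1* was 0.33 by the probe set with the largest SD and 0.14 by the mean of its probe sets. On leaving out 1 array, *C8a* ranged from -0.093 to 0.15, *F11* from -0.073 to 0.097 and *Kng1* from -0.030 to 0.026. The cause of these changes was not tested.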
